A study of Arabidopsis thaliana with 12 samples.

Results

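The sporopollenin biosynthesis enzymes of Arabidopsis thaliana were examined as a set of 6 genes, named for their known place in the pathway. They were 6 of the 38640 genes in the table of mRNA levels, and all 6 passed the filter of a mean of at least 1 TPM, the share of a library's transcripts scaled to a fixed total, as did 19778 genes in all. The 6 mRNA-Seq libraries came from 3 groups with 2 biological replicates each. The first group was unopened floral buds of dcl234, a triple homozygous mutant in the Col-0 background carrying the alleles dcl2-1, dcl3-1 and dcl4-2t of 3 DICER-LIKE genes, which make small interfering RNAs. The other groups were unopened floral buds and rosette and cauline leaves of wild-type Col-0, called Col-0 flowers and Col-0 leaves here. All plants were 4 to 6 weeks old and grew under 16 h of light and 8 h of darkness, and ERCC spike-in transcripts were added to every total RNA sample. Whole buds hold anthers at several stages besides sepals, petals and carpels, so each value is an average over all of these tissues.

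Sporopollenin is the tough polymer of exine, the outer wall of pollen grains. Its precursors are made in the tapetum, the cell layer that surrounds developing pollen inside the anther, and are then exported to the pollen surface. In the pathway, fatty acids are hydroxylated by the cytochromes P450 CYP703A2 and CYP704B1 and activated to CoA esters by the acyl-CoA synthetase ACOS5. The polyketide synthases PKSA and PKSB extend these esters to pyrones, whose keto group is then reduced by the reductase TKPR1. The genes are active for a limited time in young anthers, and AMS, a bHLH transcription factor of the tapetum, is known as one of their activators.

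The 6 genes lie on chromosomes 1 and 4. In RefSeq (build TAIR10.1), CYP703A2 (AT1G01280) spans chr1:112263-113947 on the plus strand with 2 exons, CYP704B1 (AT1G69500) spans chr1:26123940-26126057 on the plus strand with 6 exons, and ACOS5 (AT1G62940) spans chr1:23310532-23312795 on the plus strand with 6 exons. PKSA (AT1G02050, LAP6 in RefSeq) spans chr1:359117-360746 on the minus strand with 2 exons. PKSB (AT4G34850, LAP5 in RefSeq) spans chr4:16608204-16609829 on the plus strand and has 2 transcripts. TKPR1 (AT4G35420, DRL1 in RefSeq) spans chr4:16833933-16835619 on the minus strand with 6 exons. PKSB overlaps the neighbouring genes AT4G34840 and AT4G34860 by 89 and 84 bases, and TKPR1 overlaps AT4G35410 by 70 bases. The quantification was not stated to use strand, so a share of their reads may be assigned to the neighbour or the reverse.

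The 250 bases before each gene start were searched because the 6 genes were high in the same libraries. The E-box CANNTG, the kind of site that bHLH factors bind, was searched on both strands and was present upstream of 3 of the 6 genes, against 55.3% of 27443 RefSeq genes. AC elements are sites known from MYB-regulated phenylpropanoid genes. Their form ACCTACC, the form ACCAACC and the further form ACCTAAC were searched on both strands and were present upstream of 1 of the 6 genes, against 6.12% of all genes. TATAAA on the gene strand was present upstream of 1 of the 6, CYP704B1, against 32.9% of all genes. The windows of ACOS5, the gene of the set with the largest difference in dcl234 flowers, of TKPR1, the most abundant, and of CYP703A2, the closest to the mean profile of the set, are shown 5′ to 3′ on the gene strand with E-boxes and AC elements in capitals. ACOS5 has 1 E-box, at -77 to -72 relative to its start. TKPR1 has 1 E-box, at -38 to -33, and 2 overlapping AC elements, at -102 to -96 and -98 to -92. CYP703A2 has neither of these motifs in the window. The sequences are from RefSeq, build TAIR10.1.
ACOS5, chr1:23310282-23310531, plus strand: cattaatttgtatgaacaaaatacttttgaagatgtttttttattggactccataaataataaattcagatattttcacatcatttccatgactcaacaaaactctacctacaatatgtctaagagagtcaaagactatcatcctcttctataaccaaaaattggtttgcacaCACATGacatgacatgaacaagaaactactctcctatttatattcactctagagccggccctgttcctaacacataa
TKPR1, chr4:16835620-16835869, minus strand: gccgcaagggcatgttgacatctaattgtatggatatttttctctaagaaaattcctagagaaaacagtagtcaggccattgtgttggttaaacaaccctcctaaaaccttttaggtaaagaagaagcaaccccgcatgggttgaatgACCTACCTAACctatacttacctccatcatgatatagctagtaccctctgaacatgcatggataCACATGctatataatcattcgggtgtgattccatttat
CYP703A2, chr1:112013-112262, plus strand: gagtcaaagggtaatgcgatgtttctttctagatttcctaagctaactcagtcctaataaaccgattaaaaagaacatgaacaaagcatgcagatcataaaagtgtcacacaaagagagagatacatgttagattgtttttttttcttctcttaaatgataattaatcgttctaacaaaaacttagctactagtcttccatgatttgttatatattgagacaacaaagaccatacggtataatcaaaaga

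A few properties of the libraries bear on every value. TPM are shares of a fixed total, and the part of that total taken by other RNAs differed between the groups. Ribosomal RNA and the 3 loci AT3G06365, AT2G03865 and AT2G01021 took 14.8% and 5.89% of the TPM in dcl234 flowers, 40.5% and 28.1% of the TPM in Col-0 flowers, and 12.4% and 20.7% of the TPM in Col-0 leaves. Nuclear protein-coding genes took 72.7% and 81.7%, 42.4% and 60.1%, and 68.8% and 58.6% in the same order of groups. ERCC transcripts summed to 1507 and 655 TPM in dcl234 flowers, 4748 and 3585 TPM in Col-0 flowers, and 3629 and 1792 TPM in Col-0 leaves. As a check of the labels, DCL3 had 0.40 and 0.37 TPM in dcl234 flowers, against 3.85 and 4.30 TPM in Col-0 flowers (limma, adjusted p = 0.0140). DCL2 had 1.04 and 1.60 TPM in dcl234 flowers, against 2.07 and 3.26 TPM in Col-0 flowers (limma, adjusted p = 0.256), and DCL4 had 3.12 and 2.87 TPM in dcl234 flowers, against 3.20 and 4.51 TPM in Col-0 flowers (limma, adjusted p = 0.514). Reads of a mutated gene need not cover the mutated site, so the levels of DCL2 and DCL4 do not check the labels.

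All 6 sporopollenin genes were higher in Col-0 flowers than in Col-0 leaves, where 4 of them were listed at 0 in both libraries. None of the 6 passed the test between dcl234 flowers and Col-0 flowers. For every one both mutant libraries lay above both wild-type libraries, as they did for 67% of all genes tested. Levels summed over the 6 genes were 94.1 and 95.1 TPM in dcl234 flowers, 45.2 and 63.9 TPM in Col-0 flowers, and 3.31 and 4.86 TPM in Col-0 leaves. The 3 groups thus did not overlap in this sum. In bulk tissue, fewer cells of a type and less RNA per cell cannot be told apart.

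The 2 cytochromes P450 carry out the hydroxylations at the start of the pathway. CYP703A2, an in-chain hydroxylase of medium-chain fatty acids, had 8.27 and 9.33 TPM in dcl234 flowers, 3.99 and 6.07 TPM in Col-0 flowers, and was listed at 0 in both Col-0 leaf libraries. CYP704B1, an omega-hydroxylase of long-chain fatty acids, had 8.85 and 8.33 TPM in dcl234 flowers, 3.28 and 6.60 TPM in Col-0 flowers, and was likewise listed at 0 in leaves. For both genes the dcl234 libraries lay above the Col-0 flower libraries, as for 67% of all genes tested. Replicate 1 of Col-0 flowers was the lowest of the 4 flower libraries for both P450 genes. These were the least abundant genes of the set in all 4 flower libraries, where each made up between 7.26% and 10.3% of the summed level.

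ACOS5, which activates the fatty acids for the polyketide synthases, had 15.2 and 17.2 TPM in dcl234 flowers, 6.45 and 10.7 TPM in Col-0 flowers, and was listed at 0 in Col-0 leaves. It had the largest difference of the set in dcl234 flowers, 1.89-fold between the group means (16.2 ± 1.37 TPM in dcl234 flowers and 8.58 ± 3.01 TPM in Col-0 flowers, SD over 2 libraries each).

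The polyketide synthases are related to chalcone synthase and are partly redundant in pollen wall formation. PKSA had 22.1 and 16.5 TPM in dcl234 flowers, 9.06 and 12.2 TPM in Col-0 flowers, and 1.22 and 1.18 TPM in Col-0 leaves. PKSB had 17.0 and 17.2 TPM in dcl234 flowers, 8.74 and 10.3 TPM in Col-0 flowers, and was listed at 0 in both leaf libraries. The groups did not overlap for either gene. Over all genes tested, 67% lay higher without overlap in dcl234 flowers than in Col-0 flowers, and 43.6% in Col-0 flowers than in leaves. The ratio of PKSA to PKSB was 1.30 and 0.960 in dcl234 flowers and 1.04 and 1.18 in Col-0 flowers, so the 2 synthases were present at similar levels and neither was higher in all 4 libraries. PKSA spread more between the dcl234 replicates (19.3 ± 3.94 TPM) than PKSB (17.1 ± 0.141 TPM, SD, n = 2 each).

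TKPR1, which reduces the keto group of the polyketide products, was the most abundant of the 6 genes in every library. It had 22.7 and 26.6 TPM in dcl234 flowers, 13.7 and 18.1 TPM in Col-0 flowers, and 2.09 and 3.68 TPM in Col-0 leaves. Its share of the summed level was between 24.2% and 30.3% in the 4 flower libraries. With PKSA it was 1 of the 2 genes of the set with any level in leaves, where it made up 63.1% and 75.7% of the small sum. The overlapping neighbour AT4G35410 had 6.47 and 7.22 TPM in leaves, and its part in the leaf level of TKPR1 was not tested. AT4G34840 and AT4G34860, which overlap PKSB, had 3.29 and 3.63 TPM and 0.34 and 0.49 TPM in leaves, where PKSB was listed at 0.

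**Figure D1:**
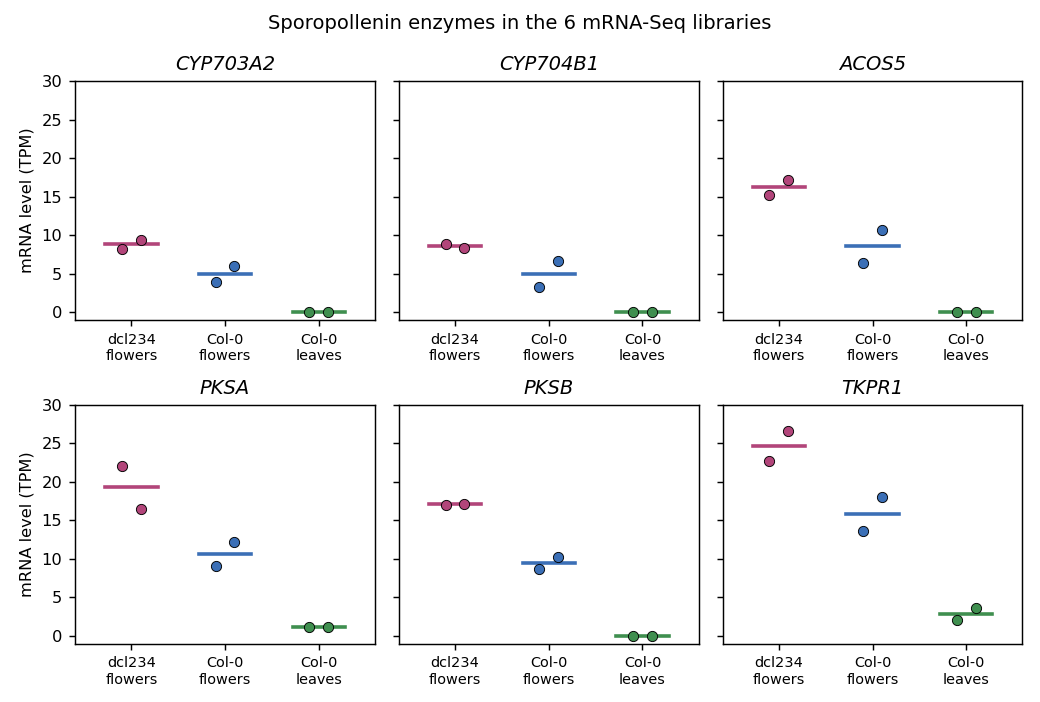
mRNA level in TPM (vertical axis) of each of the 6 genes in dcl234 flowers, Col-0 flowers and Col-0 leaves, with 1 point per library and a line at the group mean (n = 2). In every panel the dcl234 flower points lie above the Col-0 flower points, as for 67% of all genes tested. The leaf points lie at 0 except for PKSA and TKPR1.

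By TPM, the order of the 6 genes was alike at its ends in the flower libraries: TKPR1 stood first and the P450 genes stood last in all 4. ACOS5, PKSA and PKSB changed places in between, and CYP703A2 and CYP704B1 exchanged the last places within both groups. The highest gene exceeded the lowest 2.75- and 3.19-fold in dcl234 flowers and 4.17- and 2.98-fold in Col-0 flowers.

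The comparison of Col-0 flowers with Col-0 leaves describes how far the mRNA levels differ between the organ that makes pollen and leaves. All 6 genes rose in Col-0 flowers at an adjusted p under 0.05. Of all genes tested, 24.9% were called higher and 12% lower. The 4 enzymes listed at 0 in leaves passed the filter through flower libraries alone, and the set was chosen for its known role in pollen. These shares are therefore a background and do not test organ specificity. Both flower libraries lay above both leaf libraries for all 6, as for 43.6% of all genes, and 63.7% of all genes had a difference above 0. Differences are on the log2(TPM + 1) scale, which understates changes of low genes and keeps a difference finite where leaves were at 0. They were 3.39 for PKSB (SE 0.30, limma adjusted p = 8.55e-07), 3.22 for ACOS5 (SE 0.32, limma adjusted p = 3.01e-06) and 2.57 for CYP703A2 (SE 0.32, limma adjusted p = 2.43e-05). CYP704B1 differed by 2.51 (SE 0.34, limma adjusted p = 5.74e-05), PKSA by 2.39 (SE 0.31, limma adjusted p = 4.13e-05) and TKPR1 by 2.14 (SE 0.33, limma adjusted p = 1.92e-04). The median of the 6 genes was 2.54, and the median of all genes tested was 0.31. With a pseudocount of 0.1 in place of 1 these medians were 5.61 and 0.37, and all 6 genes were called.

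In TPM, the mean of PKSA was 8.84-fold and that of TKPR1 5.50-fold higher in Col-0 flowers than in Col-0 leaves. No fold is given for the other 4 genes, which were listed at 0 in leaves. The summed level of the 6 genes was 54.5 ± 13.2 TPM in Col-0 flowers and 4.09 ± 1.10 TPM in Col-0 leaves (SD over 2 libraries each), a ratio of 13.4. An exact two-sided permutation test gave p = 0.33, which is the smallest p that 2 against 2 libraries allow. When each library was instead divided by its ERCC total, all 6 differences were positive but only ACOS5 (limma, adjusted p = 0.0245) and PKSB (limma, adjusted p = 0.0153) passed the test, with adjusted p between 0.108 and 0.460 for the other 4 and 3.78% of all genes called higher.

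The comparison of dcl234 flowers with Col-0 flowers asks whether the mRNA of the pathway differs when 3 of the DICER-LIKE genes are mutated. The mean level in dcl234 flowers was 1.75-fold that in Col-0 flowers for CYP703A2, 1.74-fold for CYP704B1, 1.89-fold for ACOS5, 1.82-fold for PKSA, 1.80-fold for PKSB and 1.55-fold for TKPR1. None of the 6 passed the limma test, with adjusted p between 0.179 for ACOS5 and 0.256 for TKPR1. Over all genes 1.34% were called higher and 0.48% lower. At an unadjusted limma p under 0.05, 5 of the 6 genes were higher, against 20% of all genes. Both dcl234 libraries lay above both Col-0 flower libraries for 6 of the 6 genes, as they did for 67% of all genes tested.

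On the log2(TPM + 1) scale the differences in dcl234 flowers were 0.72 for CYP703A2 (95% interval 0.04 to 1.40), 0.75 for CYP704B1 (0.02 to 1.48) and 0.88 for ACOS5 (0.19 to 1.57). They were 0.80 for PKSA (0.13 to 1.47), 0.79 for PKSB (0.15 to 1.42) and 0.61 for TKPR1 (-0.10 to 1.33). The 6 genes thus lay within 0.27 of each other, close together relative to standard errors between 0.30 and 0.34. The median of all genes tested was itself 0.50, and 90.8% of all genes had a difference above 0. Relative to that median the 6 differences were 0.22, 0.25, 0.38, 0.30, 0.29 and 0.11 in the same order of genes, which placed them between the 64.2nd percentile (TKPR1) and the 87.4th percentile (ACOS5) of all genes. Each 95% interval included the median of all genes.

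**Figure D2:**
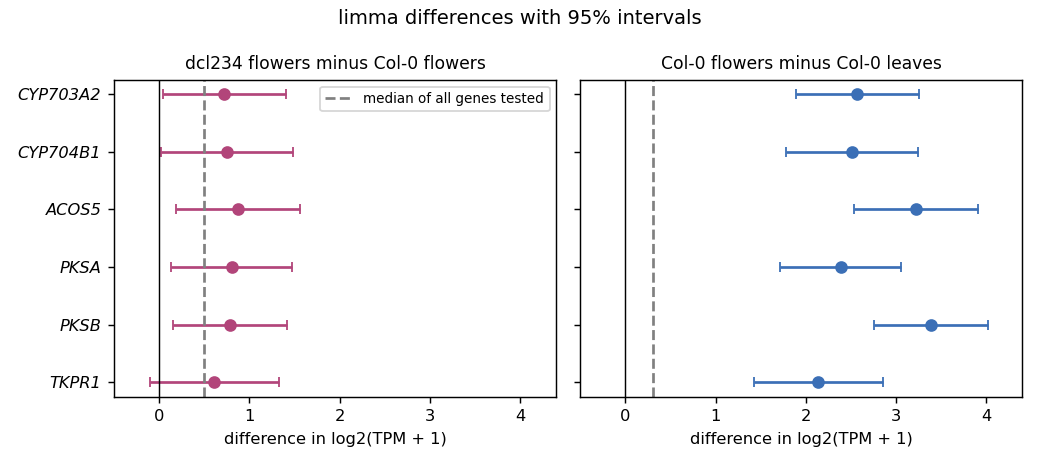
limma difference in log2(TPM + 1) (horizontal axis) of the 6 genes, dcl234 flowers minus Col-0 flowers on the left and Col-0 flowers minus Col-0 leaves on the right, with 95% intervals as bars and the median of all genes tested as a dashed line. On the left all 6 intervals cross the dashed line at 0.50, and on the right all 6 lie above the dashed line at 0.31.

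The summed level of the 6 genes was 94.6 ± 0.686 TPM in dcl234 flowers and 54.5 ± 13.2 TPM in Col-0 flowers (SD over 2 libraries each), a ratio of 1.73 (exact two-sided permutation test, p = 0.33). The size of this ratio depended on the scaling of the libraries. It was 1.18 when libraries were scaled by the median of ratios over genes, and 7.59 when they were scaled by their ERCC total. Under the median of ratios the difference was between 0.06 for TKPR1 and 0.34 for ACOS5 on the log2 scale, and none of the 6 was called (limma, adjusted p between 0.506 and 0.971). Under the ERCC total all 6 were called higher (limma, adjusted p = 0.0157 each), as were 88% of all genes tested. Their median was 2.65 and the median of all genes was then 2.34. Under each of these scalings the 6 genes lay above the median gene. The part of the differing rRNA share and ERCC total in these values was not tested.

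**Figure D3:**
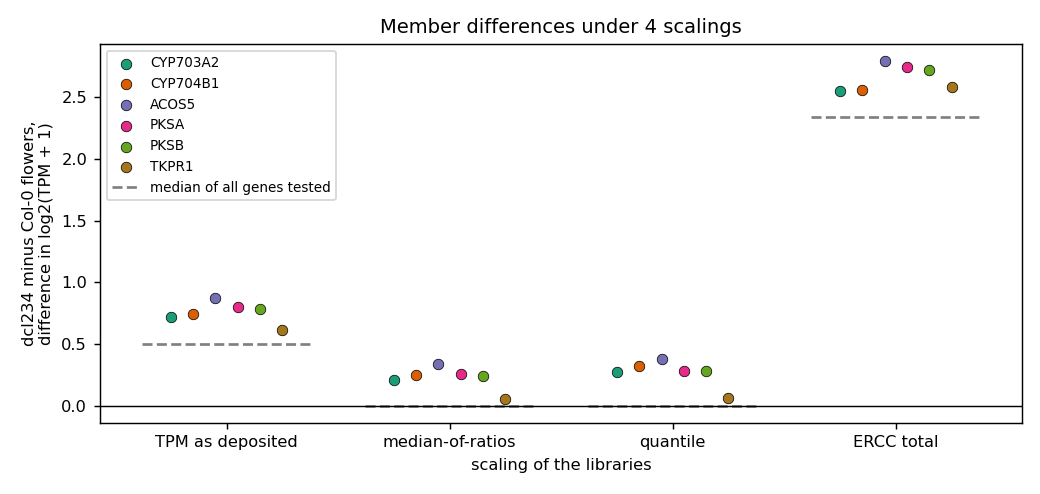
Difference in log2(TPM + 1) between dcl234 flowers and Col-0 flowers (vertical axis) of the 6 genes under 4 scalings of the libraries, with the median of all genes tested as a dashed line. The 6 points move with the median gene from scaling to scaling and stay above it, by a median of 0.27 for TPM as deposited.

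The list of further genes of sporopollenin formation held MS2, which reduces fatty acyl groups to fatty alcohols, TKPR2, a second tetraketide pyrone reductase, ABCG26, the transporter taken to export the precursors, and LAP3, needed for a normal exine. MS2 had 11.9 and 12.1 TPM in dcl234 flowers, 5.38 and 7.88 TPM in Col-0 flowers, and was listed at 0 in Col-0 leaves. TKPR2 had 18.4 and 21.7 TPM in dcl234 flowers, 11.4 and 11.5 TPM in Col-0 flowers, and 5.09 and 2.49 TPM in Col-0 leaves. Groups did not overlap for either gene, and 67% of all genes tested lay higher in dcl234 flowers than in Col-0 flowers without overlap. ABCG26 had 7.24 and 7.49 TPM in dcl234 flowers, 3.72 and 5.58 TPM in Col-0 flowers, and 0.07 TPM in each leaf library. LAP3 had 21.4 and 25.8 TPM in dcl234 flowers, 6.64 and 16.8 TPM in Col-0 flowers, and 1.07 and 0.69 TPM in Col-0 leaves. All 4 rose in Col-0 flowers against leaves, as did 24.9% of all genes tested, and 0 of 4 were called in dcl234 flowers. The median differences were 2.51 and 0.77, against 0.31 and 0.50 for all genes tested. In dcl234 flowers 3 of 4 were higher at an unadjusted limma p under 0.05, against 20% of all genes. Between organs, 0 of 4 were called under ERCC total scaling (median 1.98), and 3 of 4 without Col-0 flowers replicate 2 or without Col-0 leaves replicate 2.

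The regulators of anther development were next. AMS, the bHLH activator of the pathway, had 11.7 and 13.9 TPM in dcl234 flowers and 5.10 and 9.23 TPM in Col-0 flowers. It had 0.08 and 0.09 TPM in Col-0 leaves. By likeness to the mean profile of the enzymes, AMS ranked 21st of all genes tested. The other regulators tested ranked lower: EMS1 130th, SPL 200th, BHLH010 993rd, TEK 1642nd, BHLH089 1865th, BHLH091 3534th and TPD1 18297th. This rank depends on the size of the changes and so on abundance, not only on their shape. The enzyme ACOS5 itself ranked 285th, although it correlated at r = 0.999 with that mean, which includes it. Shared regulation was not tested. Of the 12 genes listed, DYT1, TDF1, MYB80 and MS1 fell below the filter, with at most 1.89 TPM in any library. None of the 8 tested was called in dcl234 flowers (median 0.82, against 0.50 for all genes tested). At an unadjusted limma p under 0.05, 5 of 8 were higher, against 20% of all genes. Against leaves, 6 rose in Col-0 flowers, as did 24.9% of all genes tested: SPL, EMS1, BHLH010, BHLH089, AMS and TEK. BHLH091 (0.66 and 0.93 TPM in Col-0 flowers, listed at 0 in leaves) missed the threshold. TPD1, which encodes a secreted ligand of the receptor kinase EMS1, fell in Col-0 flowers, with 3.42 and 3.57 TPM there and 18.2 and 11.6 TPM in Col-0 leaves (difference -1.79, limma adjusted p = 6.33e-04). Under ERCC total scaling 0 of the 8 were called in either direction between organs (median 1.31, against 1.70), and 4 rose under quantile normalization or without Col-0 flowers replicate 2.

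**Figure D4:**
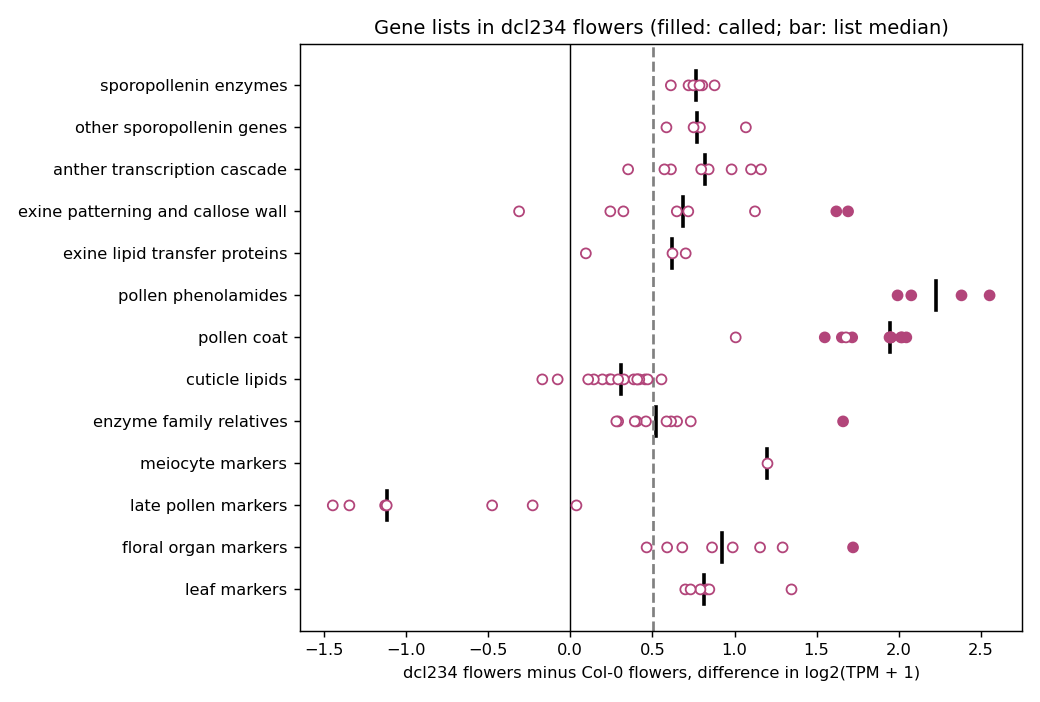
Difference in log2(TPM + 1) between dcl234 flowers and Col-0 flowers (horizontal axis) of the tested genes of 13 lists, with filled points for genes called by limma, a bar at each list's median and a dashed line at the median of all genes tested, 0.50. The 6 sporopollenin enzymes lie together at 0.61 to 0.88, left of all phenolamide and pollen coat genes plotted and right of the late pollen genes.

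Genes known to act later in the tapetum were set beside the enzymes in dcl234 flowers. Of all genes tested there, 1.34% were called higher, and the median difference was 0.50. The 4 genes for pollen phenolamides, the hydroxycinnamoyl spermidines laid on the exine, all rose (median 2.23), with SHT, the spermidine acyltransferase, reaching 63.4 and 93.8 TPM in dcl234 flowers and 14.7 and 23.5 TPM in Col-0 flowers. Of 12 pollen coat genes tested, 10 rose (median 1.95), among them GRP17, a glycine-rich oleosin, reaching 495.9 and 865.1 TPM in dcl234 flowers and 125.2 and 227.6 TPM in Col-0 flowers. These counts depended on the processing: under the median of ratios 3 of 4 and 2 of 12 were called, and without any 1 of the 4 flower libraries 0 of 4 and 0 of 12 were called. The medians with 1 library left out stayed between 1.89 and 2.58 for the phenolamide genes and between 1.49 and 2.29 for the pollen coat genes. The difference between these lists and the sporopollenin enzymes was not tested.

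Other pollen wall lists held fewer calls, beside the 1.34% of all genes called higher in dcl234 flowers and their median of 0.50. Of 8 genes tested for exine patterning and the callose wall, UPEX1 and QRT3 rose in dcl234 flowers (median of the list 0.68), but 0 of 8 were called under the median of ratios or without any 1 of the 4 flower libraries. A6, a tapetal glucanase-like protein, had 43.5 and 44.7 TPM in dcl234 flowers, 17.9 and 21.6 TPM in Col-0 flowers, and was listed at 0 in leaves. None of the 3 exine lipid transfer proteins was called (median 0.62, 0 of 3 also at an unadjusted limma p under 0.05, against 20% of all genes higher). A9, a tapetal marker of this family, had 89.4 and 106.0 TPM in dcl234 flowers, 41.6 and 84.7 TPM in Col-0 flowers, and was listed at 0 in leaves.

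Genes of the cuticle, the other extracellular lipid polymer of these organs, were set beside the enzymes. None of 16 was called in dcl234 flowers (0 also at an unadjusted limma p under 0.05, against 20% of all genes higher). Their median of 0.31 lay below the median gene at 0.50, and that of the sporopollenin enzymes, 0.77, lay above it. The medians of the leaf markers (0.81) and floral organ markers (0.93) lay above it too, so this position was not particular to the enzymes. Of all genes tested, 24.9% were called higher and 12% lower in Col-0 flowers than in leaves (3.78% higher under ERCC total scaling). Between organs, 12 of the 16 rose and 1 fell in Col-0 flowers, with 5 rising under ERCC total scaling and 8 without Col-0 flowers replicate 2.

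Relatives of the enzymes by gene family were also compared between organs. Over all genes tested, 24.9% were called higher and 12% lower in Col-0 flowers, with a median of 0.31. Of 10 relatives tested, 4 rose and 3 fell in Col-0 flowers (median -0.37). Under ERCC total scaling 0 rose and 0 fell, without Col-0 flowers replicate 2 0 rose and 3 fell, without Col-0 flowers replicate 1 4 rose and 1 fell, and without Col-0 leaves replicate 2 the median was 0.33 (3 rose and 2 fell). CHS, the chalcone synthase of flavonoid synthesis, had 194.7 and 254.9 TPM in dcl234 flowers, 129.0 and 155.4 TPM in Col-0 flowers, and 5.76 and 25.3 TPM in Col-0 leaves. PKSC, a further polyketide synthase, had 59.6 and 81.1 TPM in dcl234 flowers, 17.2 and 26.3 TPM in Col-0 flowers, and 9.34 and 5.99 TPM in Col-0 leaves. It was the 1 relative that rose in dcl234 flowers, by 1.66 on the log2 scale (limma, adjusted p = 0.0323), and it was not called under the median of ratios or without any 1 of the 4 flower libraries. CCR1, a cinnamoyl-CoA reductase of lignin synthesis, had 31.6 and 34.5 TPM in dcl234 flowers, 15.6 and 24.2 TPM in Col-0 flowers, and 49.2 and 38.1 TPM in Col-0 leaves.

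Markers of other cells that buds and leaves can hold were summed in each library. The late pollen markers, all 7 tested, summed to 366.6 and 661.2 TPM in dcl234 flowers, 940.5 and 1151 TPM in Col-0 flowers, and 13.0 and 8.17 TPM in Col-0 leaves. None of the 7 was called in dcl234 flowers (median -1.12, 4 of 7 at an unadjusted limma p under 0.05, all 4 lower). Over all genes tested, 4412 of 19778 had an unadjusted limma p under 0.05 in either direction, and 20% of all genes were higher at that threshold. Under other processing, 4 of 7 were called lower with quantile normalization, 2 with the replicate block or with only the 4 flower libraries, 2 of 5 with the stricter filter of 5 TPM and 1 under the median of ratios, whereas ERCC total scaling gave a median of 0.93 with 1 called higher. For VGD1, AGP6, AGP11 and BCP1 both dcl234 libraries lay below both Col-0 flower libraries, as for 4.05% of all genes tested and 0 of the 6 enzymes. PPME1 (85.4 and 163.7 against 183.9 and 147.7 TPM), HTR10 and ANX1 (difference 0.04) overlapped between these groups. The 8 floral organ markers summed to 684.2 and 893.1 TPM in dcl234 flowers, 335.4 and 480.7 TPM in Col-0 flowers, and 6.80 and 13.0 TPM in Col-0 leaves. Among them 1 gene, CRC, was called higher in dcl234 flowers (0 under the median of ratios), and their median was 0.93. Over all genes tested, 1.34% were called higher, with a median of 0.50. Of the 6 meiocyte markers only DMC1 passed the filter, with 6.34 and 6.90 TPM in dcl234 flowers and 1.94 and 2.74 TPM in Col-0 flowers. No other meiocyte marker had both dcl234 libraries above both Col-0 flower libraries, and ASY1 had both below (0.14 and 0.23 against 0.46 and 0.30 TPM). The sum of the 6 was 9.21 and 9.20 TPM in dcl234 flowers, 3.69 and 6.45 TPM in Col-0 flowers, and 0.89 and 0.12 TPM in Col-0 leaves. DMC1 was the largest part of this sum in each flower library. The 6 leaf markers summed to 17803 and 19405 TPM in dcl234 flowers, 9870 and 11533 TPM in Col-0 flowers, and 40381 and 27017 TPM in Col-0 leaves. Of these, 0 were called in dcl234 flowers (2 higher at an unadjusted limma p under 0.05, against 20% of all genes). Their median was 0.81, against 0.77 for the sporopollenin enzymes and 0.50 for all genes tested. The part of bud stage or of the mix of cell types in the values of the sporopollenin enzymes was not tested.

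Genes with profiles like the set were ranked over the 6 libraries by the root mean square difference between centred log2(TPM + 1) values and the mean centred profile of the 6 enzymes. The rank describes likeness across 3 groups that share the library effects above. CYP703A2 ranked 4th, CYP704B1 29th, PKSA 84th, ACOS5 285th, PKSB 425th and TKPR1 440th of 19778 genes. Each enzyme is part of the mean it was ranked against, so its own rank is partly set by the method. MS2, which is not part of that mean, ranked 13th. The 10 closest genes outside the set were CYCB2;3 (difference 0.075), UVI4-LIKE (0.084), AT5G03610 (0.087), AT1G31310 (0.092), scpl25 (0.099), AT3G62570 (0.099), MYB17 (0.102), AT2G18969 (0.105), AT3G20260 (0.105) and AT1G07820 (0.107). CYCB2;3, a B-type cyclin, had 10.4 and 11.2 TPM in dcl234 flowers, 4.16 and 6.45 TPM in Col-0 flowers, and 0 and 0.08 TPM in Col-0 leaves. UVI4-LIKE, also known as OSD1 and required for entry into the second meiotic division, had 11.2 and 12.2 TPM in dcl234 flowers, 5.64 and 7.24 TPM in Col-0 flowers, and 0.23 and 0.24 TPM in Col-0 leaves. Both were picked for likeness to the 6 enzymes in these same libraries, so their order of groups follows from that choice.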

How the data were processed

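Levels were read from the table of TPM that the authors deposited for 38640 genes and 92 ERCC transcripts. The authors ran RSEM at default settings on paired 50-base reads, against TAIR10 plus ERCC sequences, and quantified Araport11 transcript models. The RSEM version is not given in the sources used here. TPM hold no read counts, so the depth behind a value is unknown and no counting interval is given. The 19778 genes averaging at least 1 TPM over the 6 libraries were compared on log2(TPM + 1) with limma 3.58.1 in R 4.3.3, with a mean-variance trend, all 6 libraries in 1 model and Benjamini-Hochberg adjustment over all genes tested. Genes were called at an adjusted p under 0.05. The model was tested on simulated data that held no shift between libraries, so that test does not cover the scaling of the libraries. Replicates are separate biological replicates, 2 per group. Per the study's methods Col-0 leaves and buds came from the same plants, but replicate numbers were not stated to pair them. Their deviations from the group means correlated at r = 0.04 between dcl234 and Col-0 flowers and 0.03 between Col-0 flowers and leaves, and the numbers were not used to pair the libraries in the reported model. All 6 enzymes were named, and further names came from the lists of other sporopollenin genes and anther regulators, the 3 genes per other list with the highest mean in flowers (leaves for leaf markers) and the 10 most alike genes. QRT3, CRC, BCP1, PPME1, HTR10, ANX1 and ASY1 were named after their values were seen. Members and lists were chosen with earlier results of these data known. Sequences and gene positions are from RefSeq (TAIR10.1), read with Python 3.11.15, pandas 2.3.3 and matplotlib 3.10.9. Alternatives were another pseudocount, other filters, only 4 libraries, a replicate block, no trend, 3 scalings and leaving out each replicate. Small RNA tables hold no value for these genes and were not used here.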

Additional observations from a re-analysis of the deposited data

How the results depend on the processing

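The 6 sporopollenin enzymes kept a positive difference in both comparisons under every alternative in which they were tested, above the median gene each time (CYP703A2 and CYP704B1 did not pass a filter of 5 TPM, which left 4 of 4). In dcl234 flowers 0 of 6 were called, except 6 under ERCC total scaling. In Col-0 flowers against leaves 6 were called, except 2 under ERCC total scaling. The summed ratio of dcl234 flowers to Col-0 flowers was 7.59 under ERCC total scaling and 1.18 under the median of ratios, and that of Col-0 flowers to leaves was 7.54 under ERCC total scaling. Genes called in dcl234 flowers, 361 (266 higher and 95 lower), numbered 85 with a pseudocount of 0.1, 87 without a filter, 902 with a mean of at least 5 TPM, 1381 with only the 4 libraries and 17452 under ERCC total scaling. Quantile normalization gave 106 higher and 240 lower, and the median of ratios gave 75 higher and 178 lower. Leaving out each replicate gave 32 to 142 (32 and 44 without Col-0 flowers replicates 1 and 2, 142 and 102 without dcl234 flowers replicates 1 and 2). Genes called between Col-0 flowers and leaves, 7310 (4932 higher and 2378 lower), numbered 1427 (747 higher and 680 lower) under ERCC total scaling and 4576 to 7132 on leaving out each replicate, with 4576 without Col-0 flowers replicate 2. Quantile normalization gave 4167 higher and 4830 lower, and the median of ratios gave 5053 higher and 4356 lower.

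With the replicate number as a block, 958 genes were called in dcl234 flowers (722 higher and 236 lower) and 7879 between organs, 0 and 6 of the sporopollenin enzymes among them. Whether the numbers mark shared plants was not stated.

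Among other named genes, 24 differences in dcl234 flowers turned sign, none of them called before or after. Under quantile normalization these were TEK (-0.070), LTP_AT5G62080 (-0.082), LTP_AT5G52160 (-0.46), DCR (-0.31), CER6 (-0.41), CHS (-0.040), AP1 (-0.22), LHCB2.1 (-0.0044) and AT1G07820 (-0.054). Under the median of ratios they were TEK (-0.10), LTP_AT5G52160 (-0.45), DCR (-0.19), CER6 (-0.28) and AP1 (-0.11). Under ERCC total scaling they were CER1 (1.97), VGD1 (0.92), AGP6 (0.93) and AGP11 (0.70). On leaving out each replicate, TEK ranged between -0.064 and 0.77 (negative without Col-0 flowers replicate 1), LTP_AT5G52160 between -0.39 and 0.58 (negative without dcl234 flowers replicate 2 and, at -0.035, without Col-0 flowers replicate 1), CER6 reached -0.11 without dcl234 flowers replicate 2, and CER1 ranged between -0.29 and 0.13 (positive without dcl234 flowers replicate 1 and, at 0.0080, without Col-0 flowers replicate 1). The cause was not tested. The depth behind these TPM is unknown.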
